A study of Homo sapiens with 6 samples.

Results

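The ZNF genes of chromosome 19 were examined for thymidine glycol (Tg) sites in HEK293T cells with and without the DNA glycosylases NTHL1 and NEIL1. The members were all protein-coding genes of chromosome 19 whose symbol is ZNF followed by digits only, which gave 240 genes of the 20037 protein-coding genes on the autosomes, X and Y. They had a median length of 23.1 kb (2.47 to 488 kb) and together covered 6.89 Mb. Tg is an oxidised thymidine that these glycosylases remove. HEK293T is a line of human embryonic kidney cells that expresses the large T antigen of SV40.

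Sites were mapped in genomic DNA of NTHL1-/-,NEIL1-/- cells (2 libraries labelled with NTHL1, the double knockout) and of wild-type cells (2 labelled libraries), with 1 unlabelled input library of each genotype. The labels name no treatment of the cells, and the sources used here do not say how the knockout was made or whether it was 1 clone. The measurement was DPC-Seq, in which NTHL1 protein is tied covalently to the DNA where it removes a damaged base and the bound fragments are sequenced. For each genotype a single list of sites was deposited, with 9373 sites in the double knockout and 3688 in wild type, of which 608 and 227 lay on chromosome 19. There is therefore no spread between libraries, no p-value, and no value for the inputs. Intervals below are exact 95% Poisson or binomial intervals and cover counting error only, since amplified reads are not independent molecules and neighbouring sites are not independent events.

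Most ZNF proteins bind DNA through repeated zinc fingers, each of which holds a zinc ion between cysteines and histidines. Many carry a KRAB domain, which recruits the corepressor TRIM28 and through it the histone methyltransferase SETDB1, and they are best known for silencing transposable elements. Their genes arose by tandem duplication and stand in clusters on chromosome 19, where neighbouring genes resemble each other closely. How reads that fit several such copies were treated is not given in the sources used here.

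A start of transcription and a strand were found for 210 of the 240 members in a RefSeq table of promoter windows (GRCh38.p14), each from 250 bases before to 50 bases after the start. A few of these windows are shown to give the sequence beside which sites near the start of ZNF genes lay, although most sites lay farther in. A double-knockout site overlapped 1 of the 210 windows (0.476%), against 6 of 975 windows of the other protein-coding genes of chromosome 19 (0.615%). In wild type it was 0 of 210, which allows a share of up to about 1.43% (3 divided by 210, not an exact limit), against 2 of 975 (0.205%). The overlapped window was that of ZNF790, which shares its upstream region with ZNF345 on the opposite strand. Capitals mark the 80 bases inside the double-knockout site at chr19:36850963-36851642, and the window is chr19:36850743-36851042 on the minus strand.

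ZNF790: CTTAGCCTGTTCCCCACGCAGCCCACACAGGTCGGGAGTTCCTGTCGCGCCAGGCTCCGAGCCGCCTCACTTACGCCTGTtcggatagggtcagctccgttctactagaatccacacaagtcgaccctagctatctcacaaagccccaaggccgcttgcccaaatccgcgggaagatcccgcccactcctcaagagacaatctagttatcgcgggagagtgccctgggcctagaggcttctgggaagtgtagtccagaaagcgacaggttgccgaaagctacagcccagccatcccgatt

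The other windows shown belong to ZNF565 and ZNF583, the members with a site in the first 2 kb of the gene that both lists shared. They were picked after the sites were seen. Capitals mark CpG dinucleotides, of which the ZNF565 window (chr19:36215035-36215334, minus strand) holds 32 and the ZNF583 window (chr19:56403764-56404063, plus strand) holds 23.

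ZNF565: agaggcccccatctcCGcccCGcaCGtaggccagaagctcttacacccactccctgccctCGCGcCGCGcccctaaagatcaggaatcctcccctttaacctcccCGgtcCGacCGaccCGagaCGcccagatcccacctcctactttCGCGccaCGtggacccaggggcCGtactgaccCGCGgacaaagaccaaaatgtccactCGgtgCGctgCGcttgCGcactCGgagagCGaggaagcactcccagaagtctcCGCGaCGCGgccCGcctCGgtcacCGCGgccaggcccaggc
ZNF583: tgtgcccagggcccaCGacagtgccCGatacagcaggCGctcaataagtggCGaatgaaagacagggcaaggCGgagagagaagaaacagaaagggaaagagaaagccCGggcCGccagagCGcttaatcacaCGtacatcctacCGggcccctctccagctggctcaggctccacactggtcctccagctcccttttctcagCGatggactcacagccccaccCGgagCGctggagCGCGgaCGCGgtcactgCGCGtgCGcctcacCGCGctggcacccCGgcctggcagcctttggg

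Over the 10 members with a double-knockout site in the first 2 kb, the windows held a median of 25 CpG (14 to 32) and a median GC content of 64.3%. Over the 12 members with a window whose double-knockout sites all lay elsewhere in the body, the medians were 21 CpG (6 to 29) and 58.8% GC. Over the 188 members with a window and no double-knockout site in the body, they were 20 CpG (2 to 49) and 59.7% GC. The ranges overlap, and the other genes of chromosome 19 had a median of 21 CpG and 64.0% GC. The 10 members all lie on the long arm while the 188 lie on both arms, and the windows were not compared within an arm.

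The first comparison asked how many sites the ZNF genes held beside the rest of their chromosome. By site midpoint, 33 double-knockout sites lay in ZNF gene bodies, 4.79 per Mb (3.30 to 6.73), against 14.9 per Mb (13.4 to 16.5) in the bodies of the 1211 other protein-coding genes of chromosome 19. In wild type 7 sites lay in ZNF gene bodies, 1.02 per Mb (0.409 to 2.09), against 6.18 per Mb (5.24 to 7.24) in the other genes. The ratio of these rates was 0.323 (0.219 to 0.461) in the double knockout and 0.165 (0.0651 to 0.347) in wild type. At the rates of the other genes, the ZNF bodies would hold 102.3 double-knockout and 42.5 wild-type sites.

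Beside the whole genome the rate in ZNF genes did not stand apart beyond counting error. All other protein-coding genes held 3.51 double-knockout and 1.32 wild-type sites per Mb, both inside the ZNF intervals. The 237 ZNF genes of other chromosomes had rates of 5.07 per Mb (3.80 to 6.63) in the double knockout and 2.01 per Mb (1.24 to 3.07) in wild type, with intervals that overlap those of the chromosome 19 genes. The 19 genes of chromosome 19 with other zinc finger symbols, such as ZSCAN and ZFP, held only 3 and 2 sites, too few to place them.

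**Figure D1:**
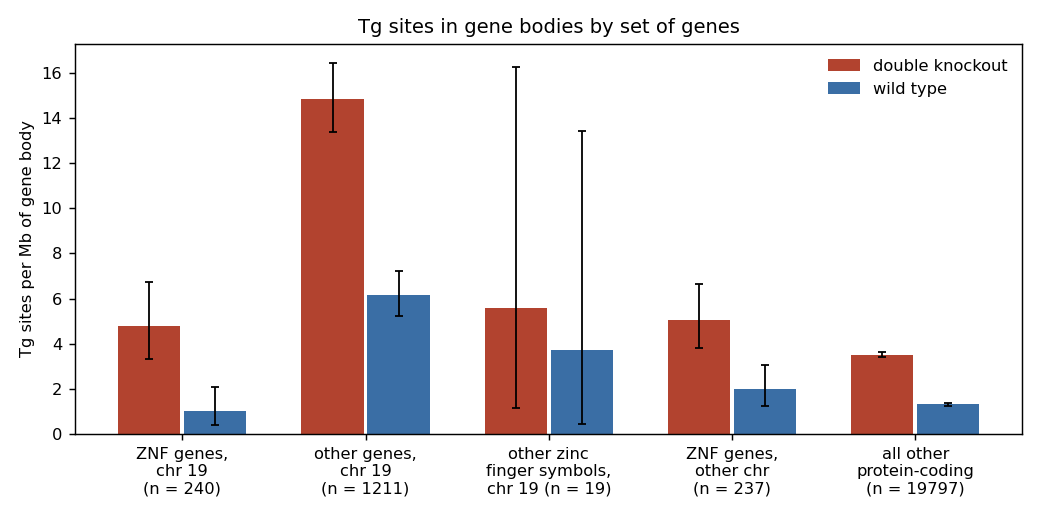
Tg sites per Mb of gene body (vertical axis) in 5 sets of genes, with the double knockout left of wild type and bars of error giving exact 95% Poisson intervals. The ZNF genes of chromosome 19 sit at 4.79 and 1.02 per Mb, below the other genes of their chromosome at 14.9 and 6.18.

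Counted by gene, 26 of 240 ZNF genes (10.8%, 7.20% to 15.5%) held a double-knockout site, where 14.0% of all protein-coding genes and 20.6% of the other genes of chromosome 19 did. A wild-type site was held by 6 of 240 (2.50%, 0.923% to 5.36%), where the shares were 5.88% and 9.58%, both above the interval of the ZNF genes. In the double knockout the share of all protein-coding genes lay inside the interval and that of the other chromosome 19 genes above it. The ZNF genes were longer than the other genes of the chromosome, with a median of 23.1 kb against 12.8 kb. Beside all other protein-coding genes of the genome they were shorter, with a mean of 29.2 kb against 65.1 kb. Among genes of 10 to 50 kb, 20 of 188 ZNF genes (10.6%) and 148 of 636 others (23.3%) held a double-knockout site. In wild type these were 3 of 188 (1.60%) and 69 of 636 (10.8%). All other protein-coding genes of the genome in that length range stood at 872 of 7886 (11.1%) in the double knockout. In wild type they stood at 353 of 7886 (4.48%). No interval was worked out within this length range, so the wild-type shortfall against the whole genome is not separated from gene length.

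The local background of reads at the sites also differed. The background recovered at sites in ZNF bodies had a median of 2.14 reads in the double knockout and 1.15 in wild type, against 2.79 and 1.74 at sites in the other chromosome 19 genes. Whether this bears on the lower number of sites was not tested. HEK293T has an uneven chromosome number, and copy number was not corrected for.

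Within the ZNF genes of chromosome 19 the sites were densest near the start. The division at 2 kb was chosen after the sites were seen. Of the 29 double-knockout sites in the 210 members with a known strand, 10 lay in the first 2 kb downstream of the start (34.5%, 17.9% to 54.3%), which makes up 6.80% of their length. The rate there was 23.8 per Mb (11.4 to 43.8), against 3.30 per Mb (1.99 to 5.15) in the rest of the bodies, a ratio of 7.22. The other genes of chromosome 19 had 27.2 per Mb (20.2 to 35.7) in the first 2 kb and 13.9 per Mb (12.2 to 15.7) in the rest, a ratio of 1.96. At the start the ZNF and the other genes thus had rates within counting error of each other, while in the rest of the bodies the intervals were apart.

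The wild-type counts were small. The first 2 kb of ZNF genes held 2 sites (4.76 per Mb, 0.577 to 17.2) and the rest of the bodies 4 (0.695 per Mb, 0.189 to 1.78), with intervals that overlap. In the other genes these rates were 12.8 and 5.41 per Mb. The 10 double-knockout sites of the first 2 kb had midpoints 426 to 1979 bases from the start, in the genes ZNF302, ZNF565, ZNF345, ZNF383, ZNF875, ZNF527, ZNF347, ZNF579, ZNF583 and ZNF544. ZNF480 and ZNF471 also held a double-knockout site close to 1 end of the gene, 807 and 525 bases from it, but their strand is not in the table. By distance from either end, which needs no strand, the outer 2 kb of all ZNF genes held 12 double-knockout sites (12.6 per Mb, 6.52 to 22.0) and the inner parts 21 (3.54 per Mb, 2.19 to 5.41). Most of these 12 are sites of the first 2 kb already counted, so this is not a separate result. The other genes of chromosome 19 had 21.7 per Mb (17.6 to 26.5) in the outer 2 kb and 13.4 per Mb (11.8 to 15.1) in the inner parts.

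**Figure D2:**
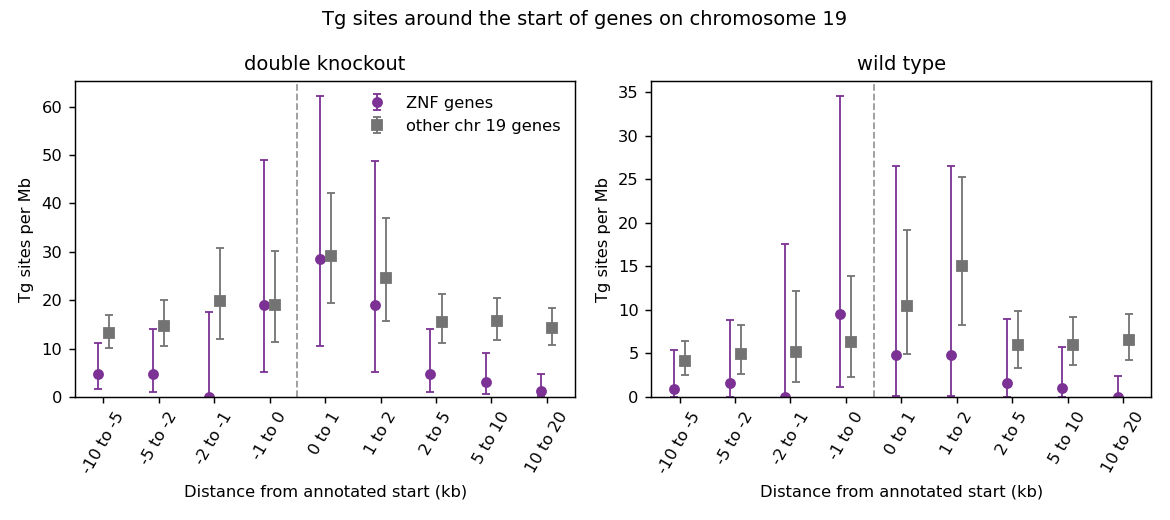
Tg sites per Mb (vertical axis, a different range in each panel) by distance from the annotated start of transcription, in kb and with negative values upstream, for the double knockout (left) and wild type (right). Points with exact 95% Poisson intervals show the ZNF genes (circles) beside the other genes of chromosome 19 (squares), and in the double knockout the ZNF rate is 28.6 per Mb from 0 to 1 kb and 1.33 per Mb from 10 to 20 kb, where the other genes have 29.1 and 14.2.

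The members fell into 10 clusters of at least 3 genes, with a gap of more than 500 kb between clusters, and 12 isolated genes. The clusters are numbered along the chromosome. Positions are those of hg38 on chromosome 19, and whether a site lies in an exon or an intron was not analysed here. Of each site, the fold is the authors' enrichment over local background, q their adjusted p, and the reads are whole reads at the summit recovered from fold and p. Clusters 1 to 4, with 80 genes, lie on the short arm between 2.82 and 24.1 Mb, and clusters 5 to 10, with 148 genes, lie on the long arm between 34.7 and 58.5 Mb. Nearly all sites in ZNF genes were on the long arm. The clustered genes of the long arm held 23 double-knockout sites (6.34 per Mb, 4.02 to 9.51) in 20 genes, and those of the short arm held 2 (0.795 per Mb, 0.0963 to 2.87) in 2 genes, a ratio of 7.97 (1.97 to 69.7). In wild type they held 6 sites (1.65 per Mb, 0.607 to 3.60) and 0 sites (up to 1.47 per Mb).

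The other protein-coding genes of chromosome 19 had 16.4 double-knockout sites per Mb (14.2 to 18.8) on the long arm and 13.3 (11.3 to 15.5) on the short arm, a ratio of 1.24. In wild type they had 5.70 and 6.67 sites per Mb, a ratio of 0.855. The contrast between the arms rests on few sites of high rank. With the double-knockout list cut to the wild-type size, 9 sites (2.48 per Mb, 1.13 to 4.71) on the long arm stood against 1 (0.398 per Mb, 0.0101 to 2.22) on the short arm, with intervals that overlap. With sites at or above the list's median −log10 q alone, 13 (3.58 per Mb, 1.91 to 6.13) stood against 1, and the intervals overlap again. Such overlap does not show that the arms are alike, and the ratio was given no interval under either restriction. Inside the cluster spans, other protein-coding genes held 16 double-knockout sites (11.1 per Mb) on the long arm and 12 (19.3 per Mb, 9.99 to 33.8) on the short arm, the 12 all in cluster 2. Under either restriction of the list the short-arm count was 3 (4.83 per Mb, 0.997 to 14.1), and its interval then overlaps that of the ZNF genes. All 10 double-knockout sites in the first 2 kb of a ZNF gene were on the long arm, where the rate in that part of the genes was 36.5 per Mb (17.5 to 67.1) and that of the other genes 31.7 per Mb. On the short arm the first 2 kb of the members with a known strand held 0 sites, with an upper bound of 25.3 per Mb. That bound holds the 21.5 per Mb of the other short-arm genes and reaches into the interval of the long-arm ZNF genes. No interval was worked out for the ratio of the arms in this part of the genes. Whether the arms differ there was therefore not settled. The arms were compared after the sites were seen.

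**Figure D3:**
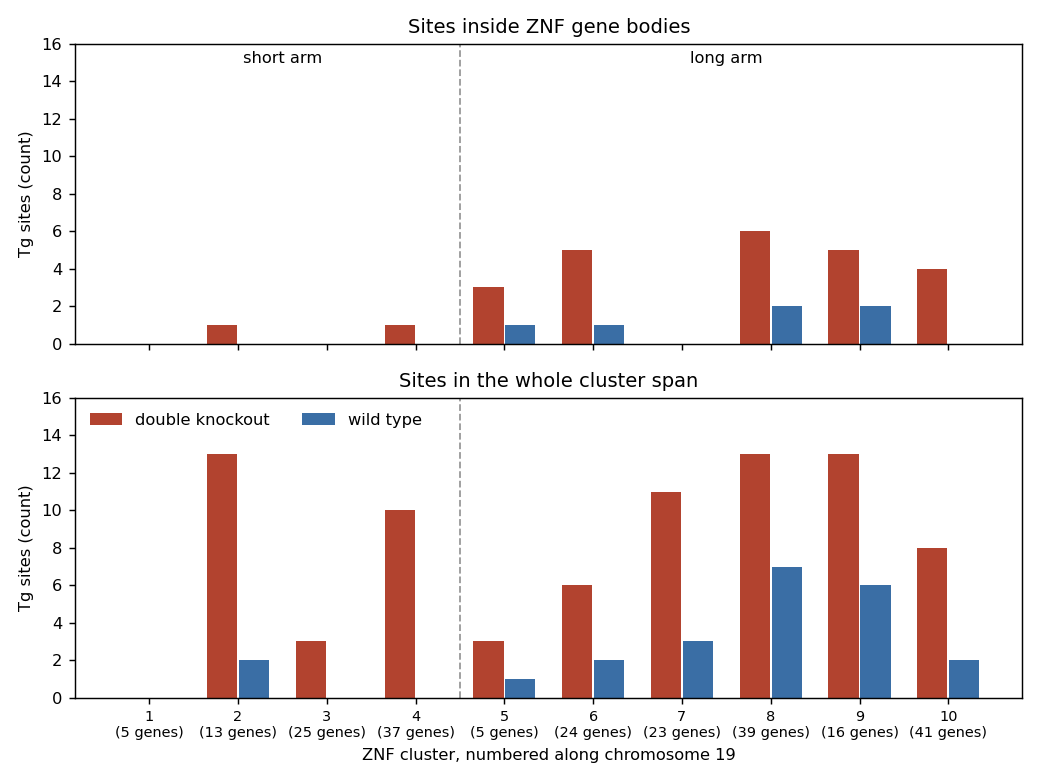
Number of Tg sites (vertical axis) inside ZNF gene bodies (top) and in the whole span of each ZNF cluster (bottom), with the double knockout left of wild type and clusters numbered along chromosome 19. Clusters 1 to 4 on the short arm hold 2 double-knockout sites in ZNF bodies and clusters 5 to 10 on the long arm hold 23, while the spans hold 26 and 54.

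Cluster 4 (19.67 to 24.13 Mb) had the lowest double-knockout span rate of the 9 clusters with any site. It holds 37 members, among them ZNF91 and ZNF93, known for silencing SVA and L1 retrotransposons in primates, and neither had a site in its body or flanks in either list. Its only site in a member was 1 in ZNF708 (fold enrichment over background 4.34, 12 reads, double knockout). The span of 4.46 Mb held 10 double-knockout sites (2.24 per Mb, 1.07 to 4.12) and 0 wild-type sites (up to 0.827 per Mb). Of the other 9 double-knockout sites, 6 lay in no annotated gene and 3 in pseudogenes or non-coding genes.

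The other short-arm clusters differed in what lay between their ZNF genes. Cluster 1 (5 genes at 2.82 to 2.94 Mb) had no site. Cluster 2 (13 genes at 8.51 to 9.79 Mb) had 13 double-knockout and 2 wild-type sites in its span. Of these, 1 double-knockout site was in a ZNF gene, ZNF846 (9751482 to 9751881, fold 6.35, −log10 q 8.11, 17 reads), and 12 were in other protein-coding genes, including 7 in the mucin gene MUC16. Cluster 3 (25 genes at 11.48 to 12.63 Mb) had 3 double-knockout sites in its span and none in a member.

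On the long arm, cluster 5 (5 genes at 34.68 to 34.96 Mb) had sites in ZNF599, ZNF302 and ZNF792. ZNF599 held 2 double-knockout sites, at 34765713 to 34766211 and 34780050 to 34780729, with folds of 3.54 and 4.72, −log10 q of 2.58 and 5.07, and 11 and 15 reads. It had no wild-type site. ZNF302 held 1 double-knockout site (fold 5.59). ZNF792 was the only member with a wild-type site and no double-knockout site (fold 5.46, 9 reads, 4.12 to 17.1).

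Cluster 6 (24 genes at 36.18 to 37.78 Mb) had a double-knockout site in 5 members, each of them in the first 2 kb. ZNF565 had the ZNF site of lowest q in the double knockout, at 36213841 to 36214379, with a fold of 6.02 and 29 reads (19.4 to 41.6). Its wild-type partner had a fold of 5.48 and 14 reads (7.65 to 23.5). ZNF345, with a fold of 6.49 and 21 reads, and ZNF527, with a fold of 6.68 and 19 reads, had double-knockout sites only. So did ZNF875 and ZNF383, with folds of 4.61 and 4.04. The nearest wild-type sites were 322 to 784 kb away.

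Cluster 7 (23 genes at 43.53 to 44.50 Mb) had no site in any member body, although its span held 11 double-knockout sites, 11.3 per Mb (5.66 to 20.3), the highest span rate of the 10 clusters, and 3 wild-type sites. With a gap of 250 kb the highest rate was that of a block of 7 genes in cluster 9, at 23.7 per Mb. Of the 11 double-knockout sites, 7 lay in no annotated gene, 2 in a transcribed pseudogene, and 1 each in CADM4 and PLAUR, genes of a cell adhesion molecule and of the urokinase receptor. Upstream of ZNF229 stood 3 double-knockout sites within 10 kb, with folds of 6.25, 6.68 and 5.53, and the site of fold 6.68 overlapped a wild-type site of fold 4.46.

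Cluster 8 (39 genes at 51.57 to 53.58 Mb) held the only member with 2 sites in each list. ZNF331, an imprinted gene, had double-knockout sites at 53506260 to 53506634 and 53558705 to 53560364. They had folds of 5.28 and 8.17 in the double knockout, with 19 and 18 reads, and wild-type folds of 5.22 and 6.51, with 12 and 11 reads, in the order of position. The first pair lies before the start of the promoter table, inside the longer annotated body, and the second lies after it. The second double-knockout site was 1660 bp wide, the widest in any ZNF gene, where the wild-type site was 530 bp. ZNF83 held 2 double-knockout sites, at 52624798 to 52625198 and 52628814 to 52629089, with folds of 8.24 and 3.21 and 19 and 15 reads, of which the first was the highest fold in any ZNF gene. Both also lie in 2 annotated non-coding or uncharacterised genes, and the lists give no strand that could assign them. ZNF347 held 1, at 53157434 to 53158036, with a fold of 6.91, a −log10 q of 10.1 and 20 reads. ZNF480 held 1 with a fold of 5.09.

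Clusters 9 and 10 close the long arm. In cluster 9 (16 genes at 55.48 to 56.67 Mb) ZNF583 had a site in both lists, at 56404506 to 56405658 in the double knockout, with a fold of 6.25 and 18 reads in the double knockout and 4.66 and 9 reads in wild type. ZNF471 had neighbouring sites that did not overlap, 0.013 kb apart, with a fold of 5.22 and 17 reads in the double knockout and 5.36 and 11 reads in wild type. Counted by overlap they are not shared. ZNF579, ZNF581 and ZNF444 had double-knockout sites only, with folds of 4.05, 4.06 and 5.28. In cluster 10 (41 genes at 57.19 to 58.49 Mb) ZNF17, ZNF749, ZNF134 and ZNF544 had double-knockout sites, with folds from 4.49 to 5.74, and no member had a wild-type site. ZNF274, which is known to bind the ends of other ZNF genes, had none in its body or flanks.

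The isolated genes held 8 double-knockout and 1 wild-type site. ZNF536, a repressor of neuronal differentiation and by far the longest member at 488 kb, held 5 double-knockout sites, with folds of 4.75, 4.56, 5.25, 7.02 and 3.41 and with 12, 11, 21, 20 and 16 reads in the order of position. It had 0 wild-type sites. Its rate of 10.2 per Mb (3.33 to 23.9) and the wild-type bound of 7.56 per Mb have overlapping intervals. The sites were spread from 98.4 to 476 kb after the start. ZNF574 had a site in both lists, at 42077726 to 42078621 in the double knockout, with a fold of 6.68 and 19 reads in the double knockout and 5.59 and 11 reads in wild type. ZNF473, a zinc finger protein of histone pre-mRNA processing, and ZNF114 had 1 double-knockout site each, with folds of 5.28 and 3.69.

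**Figure D4:**
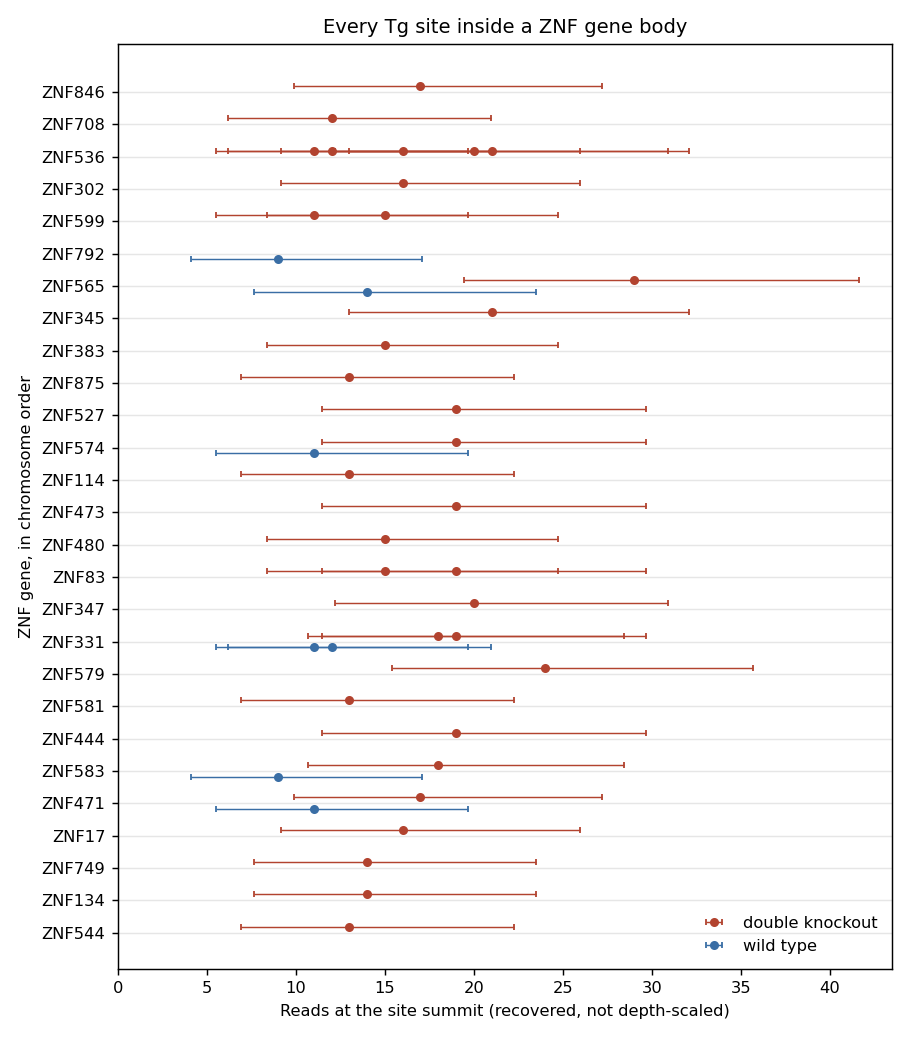
Reads recovered at the summit of each Tg site inside a ZNF gene body (horizontal axis, not scaled for depth), with exact 95% Poisson intervals, for the 27 members with a site in chromosome order (vertical axis). Double-knockout sites (upper point of a gene) have 11 to 29 reads and wild-type sites (lower point) 9 to 14. The lowest background was 1.25 reads in the double-knockout list and 0.739 in the wild-type list, and depth itself was not measured.

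The sites in ZNF genes were of ordinary strength and rested on few reads. The 33 double-knockout sites had a median fold of 5.22 (3.21 to 8.24) and a median of 16 reads, against 4.89 and 17 reads in the other genes of chromosome 19. The 7 wild-type sites had a median fold of 5.46 (4.66 to 6.51) and 11 reads, against 4.95 and 13 reads. None was near the top of its list, and by q the best ranked 1120 in the double knockout and 1243 in wild type. At or above the median −log10 q of their list stood 18 of 33 double-knockout and 2 of 7 wild-type sites.

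The genotypes were compared next, as far as 1 list each allows. ZNF bodies held 4.71 times as many double-knockout as wild-type sites (2.05 to 12.6), an interval that holds the 2.54 times of the whole lists and the 2.41 times of the other chromosome 19 genes. With the double-knockout list cut to its best sites by q, as many as wild type has, the ratio in ZNF bodies was 2 (14 against 7 sites), and with sites at or above the list's median −log10 q alone it was 9 (18 against 2). Of the 7 wild-type sites 5 overlapped a double-knockout site (71.4%, 29.0% to 96.3%), where 75.3% of the whole list did. Of the 33 double-knockout sites 5 overlapped a wild-type site (15.2%, 5.11% to 31.9%), against 31.3% (26.5% to 36.3%) in the other genes of chromosome 19, and these intervals overlap. Both ZNF331 pairs and the pairs of ZNF565, ZNF574 and ZNF583 made up the shared sites.

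At the 5 shared sites the reads were about equal after scaling. Double-knockout reads were divided by 1.69, the ratio of the lowest backgrounds of the lists. The double-knockout to wild-type ratio was then 1.02 at the median and ranged from 0.936 (the first ZNF331 pair) to 1.22 (ZNF565), where the median over all 2776 shared wild-type sites was 0.940. A second divisor, 1.61, served as an assumed ratio of depth, since depth itself was not measured. It is 1.69 divided by the ratio of the narrowest site widths of the lists (256 and 243 bp). With it the medians were 1.08 and 0.990.

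Within 10 kb of a ZNF gene and in no ZNF body lay 18 double-knockout sites (5.44 per Mb, 3.22 to 8.59) and 5 wild-type sites (1.51 per Mb, 0.490 to 3.53), rates within counting error of those in the bodies. The double-knockout flank site of lowest q stood 0.670 kb before ZNF574, inside GRIK5, a glutamate receptor gene (fold 6.22, −log10 q 10.1). ZNF260 had a site 0.813 kb upstream of its start in the double knockout (fold 6.55, 16 reads) and an overlapping one 0.921 kb upstream in wild type (fold 6.02, 11 reads), the wild-type flank site of lowest q. Beside these, the 5 double-knockout flank sites of lowest q included the ZNF229 sites of fold 6.68 and 6.25, described above, and 1 near ZNF329 inside ZSCAN18 (fold 5.60). In wild type the other flank sites lay near ZNF229, ZNF541, ZNF701 and ZNF264, with folds from 3.27 to 4.46. A site within 10 kb and in no ZNF body was found for 16 of the 240 members in the double knockout and 6 in wild type. Over all protein-coding genes, 8.49% and 3.21% had a site within 10 kb outside the body. In all, 196 of the 240 members had no site in the body or within 10 kb in either list. The matching share of all protein-coding genes was not worked out, so this count sets the members apart from nothing.

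The partners through which KRAB zinc fingers silence chromatin held few sites in their bodies, too few to set them apart from other genes by that count. Of 26 genes listed from background knowledge, which include TRIM28, SETDB1, the HP1 genes and the DNA methyltransferase genes, 1 held a double-knockout site in its body (3.85%, against 14.0% of all protein-coding genes). It was ATRX, a chromatin remodeller (fold 4.30). In wild type 0 of 26 did, which allows a share of up to about 11.5% (3 divided by 26, not an exact limit), against 5.88%. A double-knockout site within 10 kb outside the body was found for 6 of the 26, TRIM28, SETDB1, CHD4, HDAC2, SUV39H1 and DNMT3A. That is a larger share than the 8.49% of all protein-coding genes. In wild type it was 2 of the 26, TRIM28 and HDAC2, also above the share of 3.21%. No interval was worked out for these flank counts, and whether they stand apart was not tested. TRIM28 had the most of the list. It had no site in its body, but 6 double-knockout sites within 10 kb, with folds from 3.71 to 7.42, and 2 wild-type sites, with folds of 6.21 and 4.91. The last double-knockout site (58557292 to 58557715) lay inside another gene, UBE2M. All the others, and both wild-type sites, lay close together between 58539220 and 58543034, so they are not independent events.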

How the data were processed

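Genomic DNA of HEK293T cells was fragmented, incubated with NTHL1 under reducing conditions and enriched for the cross-linked fragments, per the labels' protocols. The submitters' processing notes name hg38 as the build and the tools deepTools, bedtools, MACS2 and Bowtie2. Their versions and settings, the handling of duplicate and multi-mapping reads, and the way both libraries of a genotype became 1 list are not stated in the sources at hand. Each list was given its genotype from the genotype word its name shares with the library titles.

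Every deposited score equals 10 times −log10 q without its decimals. The deposited fold is a ratio, reads at the summit over the background. Values of −log10 p and −log10 q were deposited as the authors' caller gave them, with q reaching 0.0489 (double knockout) and 0.0450 (wild type). Reads were recovered from fold, taken as (reads + 1) / (background + 1), and p, taken as a Poisson tail, and came out whole (within 0.001 of the deposited −log10 p) at 100% of sites. Median reads per site were 17 and 13. Read totals per library are not known. The recovery and the counting were tested on simulated sites.

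Sites were assigned by midpoint to gene bodies of a RefSeq gene table (GRCh38.p14), and flanks reached 10 kb. A site counted as shared at an overlap of at least 1 bp. The arms were divided at 25 Mb. No test between genotypes or gene sets was run, since each genotype has 1 list. The members, the gene lists and the comparisons were chosen with earlier results of these data known, and the first 2 kb and the arms were added after the sites were seen. Members were singled out by a site in both lists, at least 2 sites in a list, 1 of the 10 sites of lowest q, or the most sites of a cluster, and flank sites as the 5 of lowest q per list; for these the fold and, for most, the reads and position are printed, and other members are named for their counts. Site and protein sequences were not used here. Python 3.11.15, numpy 2.4.6, scipy 1.17.1, pandas 2.3.3 and matplotlib 3.10.9 were used.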

Additional observations from a re-analysis of the deposited data

How the results depend on the processing

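The ratio of the rate in ZNF bodies to that in the other genes of chromosome 19 ranged from 0.295 to 0.389 in the double knockout and from 0.103 to 0.198 in wild type over the alternatives run (assignment by any overlap, sites at or above the list's median −log10 q, the double-knockout list cut to the wild-type size, sites within 10 kb counted once, without ZNF536, and without 50 to 51 Mb). The ratio of the first 2 kb to the rest of ZNF bodies ranged from 4.02 to 10.7 in the double knockout and from 4.94 to 13.7 in wild type. The wild-type 13.7 rests on 1 site against 1, at 2.38 per Mb (0.0603 to 13.3) and 0.174 per Mb (0.00440 to 0.968), with intervals that overlap. The ratio of the long to the short arm ranged from 6.24 to 9.01. Its interval was worked out for the whole list alone, so the overlap of rates given next does not show that the arms are alike. In the double knockout the intervals of the first 2 kb and the rest stayed apart under each restriction of the list (the smallest count was 5 sites, 11.9 per Mb, 3.87 to 27.8, against 8, 1.39 per Mb with an upper bound of 2.74), whereas those of the arms overlapped with 9 against 1 and with 13 against 1 site. With sites at or above the list's median alone, 18 double-knockout sites in 16 ZNF genes and 2 wild-type sites in 2 ZNF genes were left, and 100% of the wild-type sites were shared; fewer sites enter there. With the double-knockout list cut to the wild-type size, 14 sites in 12 ZNF genes were left and the ratio of site counts was 2. A flank of 20 kb held 28 double-knockout sites and a flank of 5 kb held 3 wild-type sites. With a gap of 250 kb between clusters the highest span rate was 23.7 per Mb. No direction reversed, and the other 65 values moved by less than their counting interval or by less than 1.5 times. No paired analysis was possible because each genotype has 1 list with no values per library, and for the same reason no library could be left out. The wild-type values rest on 7 sites, and the depth behind the lists is known only through the reads at listed sites.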

Other observations

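Some neighbours of ZNF genes held more sites than the ZNF genes themselves. Between the isolated genes ZNF574 and ZNF526 lay 7 double-knockout sites, of which 6 were in POU2F2, the gene of a transcription factor of B cells, and 1 was in ZNF574. In cluster 2, MUC16 held 7 of the 13 double-knockout sites of the span, where the 13 ZNF genes held 1. These counts are not scaled for gene length, and the neighbours are named here because they held many sites.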
